A study of Homo sapiens with 2 samples.

Results

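The mRNAs of 5 sequence-specific transcription factors, KLF6, SIM1, CREBL2, GRHL1 and HOXD11, were examined among the 104 genes that the study lists as recovered with SYNJ2BP. They were taken from the list by gene symbol as the transcription factors outside the ZNF, ZBTB and ZSCAN symbols. SYNJ2BP (Synaptojanin-2-binding protein) is a PDZ domain protein anchored in the outer mitochondrial membrane, and its mRNA clients were sought by RNA immunoprecipitation and sequencing (RIP-seq), which sequences the RNA that an antibody brings down with its target. The first library came from untreated HEK293T cells (transformed cells of human embryonic kidney origin) with an antibody against endogenous SYNJ2BP, and the control library came from the same untreated line with a nonspecific IgG. Each condition has 1 library and no RNA from before the immunoprecipitation was analysed here, so no test, error or replicate spread accompanies any value below, and recovery by the antibody cannot be told apart from a high level of an mRNA in the cell.

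A transcription factor is made on cytosolic ribosomes and then enters the nucleus, where a DNA-binding domain reads a short sequence near the genes it controls. The 5 factors carry different domains of this kind. KLF6 has Kruppel-type zinc fingers and is an early responder to injury and growth signals, and SIM1 pairs a basic helix-loop-helix with PAS domains and directs the development of hypothalamic neurons. CREBL2 has a basic leucine zipper related to that of CREB, the factor that responds to cAMP. GRHL1, of the grainyhead family, acts in epithelial and epidermal differentiation, and HOXD11 is a homeodomain protein that patterns the limb and, with its paralogs in the mouse, the developing kidney.

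The values are gene-level FPKM (sequenced fragments divided by transcript length and by the total mapped in that library), which can therefore be set side by side between genes. Every listed gene was far higher in the SYNJ2BP IP than in IgG, with no plain ratio under 84.8, so a higher value in the SYNJ2BP IP is a property of the list and not a finding about any member. Differences are on the log2(FPKM + 1) scale, SYNJ2BP IP minus IgG, on which the change of low genes is understated. A plain ratio was read only where the IgG FPKM was at least 0.01. A gene under that limit is called listed near 0 in IgG, since the size of its ratio cannot be read.

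SIM1 had the highest level of the 5 mRNAs in both libraries, at 36.4 FPKM in the SYNJ2BP IP library and 0.349 FPKM in the IgG library. Its log2 difference was 4.79, or 27.7-fold on the scale with 1 added, and its plain ratio was 104.1. By FPKM it ranked 20 of 104 in the SYNJ2BP IP and 13 of 104 in IgG, so that this developmental regulator stood in the upper part of the list on both sides of the comparison. The level of KLF6 was 18.9 FPKM in the SYNJ2BP IP library and 0.0262 FPKM in the IgG library, with a log2 difference of 4.28. It ranked 37 in the SYNJ2BP IP and 34 in IgG. SIM1 was thus 1.93 times as high as KLF6 in the SYNJ2BP IP but 13.3 times as high in IgG.

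CREBL2 reached 14.6 FPKM in the SYNJ2BP IP library and was near 0 in the IgG library, at 5.8e-05, with a log2 difference of 3.96. GRHL1 reached 11.9 FPKM in the SYNJ2BP IP library, against 0.0972 FPKM in the IgG library, which gave a log2 difference of 3.55 and a plain ratio of 122.2. GRHL1 and CREBL2 differed by 1.23 times in the SYNJ2BP IP, while only GRHL1 had a readable level in IgG. HOXD11 was the lowest of the 5 in the SYNJ2BP IP library, at 9.83 FPKM. It was near 0 in the IgG library, at 2.3e-12, and its log2 difference was 3.44. Even so it ranked 62 of 104 in the SYNJ2BP IP, well above the lowest genes of the list.

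**Figure D1:**
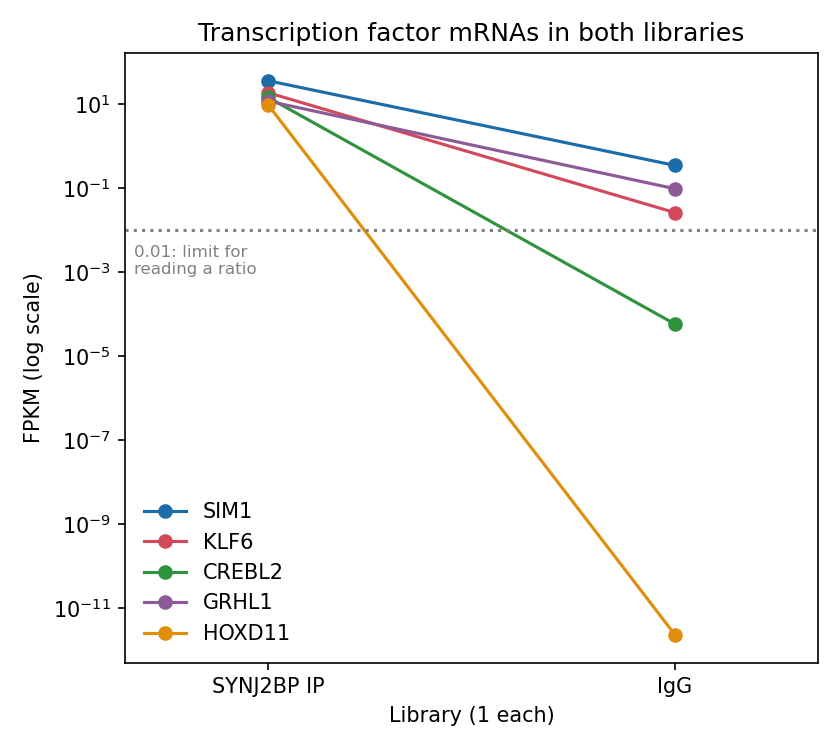
FPKM of the 5 transcription factor mRNAs in the SYNJ2BP IP library (left) and the IgG library (right) on a log axis, with 1 point per library and a line joining the points of a gene. The SYNJ2BP IP values lie between 9.83 and 36.4, while the IgG values run from 0.349 for SIM1 to 2.3e-12 for HOXD11, and the dotted line marks the IgG limit of 0.01.

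What the IgG values can carry is seen from the number of fragments behind them. The depth of both libraries is unknown, because a chosen list holds no library total. For an mRNA of 10 kb, 1 fragment would give the IgG FPKM of SIM1 in a library of 286223 mapped fragments. The same holds for GRHL1 in a library of 1028863 and for KLF6 in 3813257. The whole KLF6 gene spans 9.21 kb in RefSeq, so its mRNA is shorter than 10 kb and the depth for KLF6 would be larger. The value of CREBL2 would need 1.7e+09 fragments and that of HOXD11 4.3e+16, and a shorter mRNA would need more. The IgG values of CREBL2 and HOXD11 therefore measure no level. Their IgG ranks (55 and 84 of 104) give no order of levels among the genes near 0. Being listed near 0 in IgG was common in the list, at 68 of 104 genes (65.4%), and it applied to 2 of the 5 transcription factors.

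Within the SYNJ2BP IP the highest FPKM of the 5 mRNAs was 3.70 times the lowest. The whole list ran from 0.619 to 1842, but a range over 104 genes is not comparable with one over 5. The median of the 5 was 14.6, beside 12.2 for all listed genes, and SIM1, KLF6 and CREBL2 lay above the median of the list. The interval from HOXD11 to SIM1 held 43 of the 104 listed genes, the 5 included. Summed over the SYNJ2BP IP library, they made up 1.83% of the FPKM of all listed genes, or 4.25% when SCRIB and MPDZ, which stand far above all other genes, are left out. The transcription factor mRNAs were thus found in the middle of the list and at neither end of it.

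With 1 added, all 5 were higher by at least 4-fold in the SYNJ2BP IP, as were 87 of the 104 listed genes (83.7%), so this count follows the background and does not set the group apart. At 8-fold the counts were 5 of 5 and 70 of 104 (67.3%), and at 2-fold 5 of 5 and 100 of 104 (96.2%). The 5 log2 differences ran from 3.44 to 4.79 with a median of 3.96, beside 3.72 over all 104 genes and 3.72 over the other 99. With 0.1 or 0.01 added, all 5 and all 104 (100%) passed 4-fold. With 10 added, SIM1 alone did, beside 23 of 104 genes (22.1%). None of the 5 carries the mark for genes that the authors tested by CLIP. The paper picked mitochondrion-related hits for that test, so the missing mark is no result about these mRNAs.

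The nearest comparable genes are the 5 with ZNF, ZBTB or ZSCAN symbols, whose products have zinc finger domains of the C2H2 type, as KLF6 does. The 5 transcription factors had FPKM values from 9.83 to 36.4 in the SYNJ2BP IP, and the zinc finger genes had values from 1.30 to 134.9, so that the zinc finger genes lay on both sides of the narrower group. ZNF571 had 134.9 FPKM in the SYNJ2BP IP, against 1.24 FPKM in IgG, and ZNF260 had 74.0 FPKM in the SYNJ2BP IP, against 0.262 FPKM in IgG. ZSCAN23 had 25.6 in the SYNJ2BP IP, ZBTB24 had 2.11 and ZNF709 had 1.30, and all of them were listed near 0 in IgG. The median log2 difference was 3.96 for the 5 transcription factors and 4.73 for the zinc finger genes, while with 0.01 added these medians stood the other way round, at 9.03 for the transcription factors and 7.06 for the zinc finger genes. At least 4-fold with 1 added, the counts were 5 of 5 transcription factors and 3 of 5 zinc finger genes, beside 87 of 104 listed genes (83.7%). The zinc finger genes that fell short, ZBTB24 and ZNF709, could not reach 4-fold at any IgG value, given their low FPKM in the SYNJ2BP IP. This count thus reflects the SYNJ2BP IP level. With 1 library a condition, no test of these differences was possible.

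**Figure D2:**
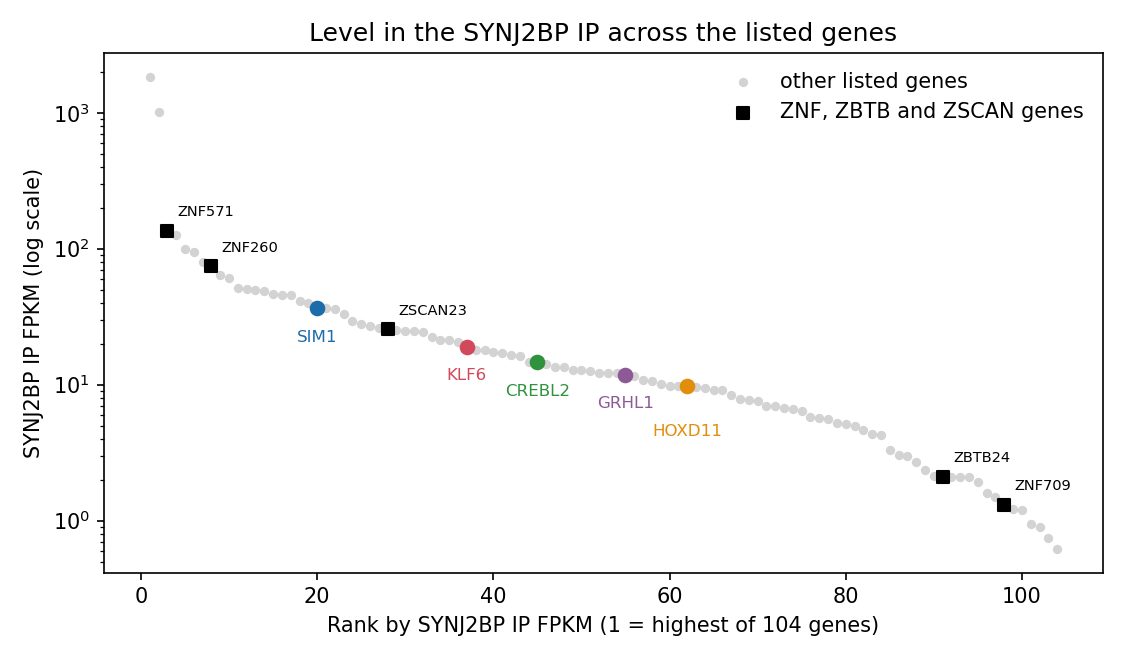
SYNJ2BP IP FPKM (log axis) of the 104 listed genes against their rank, with the 5 transcription factor mRNAs as coloured circles, the 5 genes with ZNF, ZBTB or ZSCAN symbols as black squares and other genes in grey. The transcription factors hold ranks 20 to 62, and the zinc finger genes spread from rank 3 (ZNF571) to rank 98 (ZNF709).

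KLF6, GRHL1 and SIM1 are among the 36 listed genes with a readable IgG level. Their plain ratios were 720.3 for KLF6, 122.2 for GRHL1 and 104.1 for SIM1, beside a median of 112.5 over the 36. In that order KLF6 ranked 1, GRHL1 17 and SIM1 21, but the first place depends on the IgG limit. At a limit of 0.001 KLF6 ranked 4 of 40 genes, and at 0.1 it is no longer read. The highest ratio among the other 33 genes was 558.1. The high ratio of KLF6 went with a low IgG value, which ranked 34 of the 36 and was 2.62 times the limit. How many fragments stand behind that IgG value is unknown. The SYNJ2BP IP FPKM of KLF6 lay below that of SIM1. GRHL1 and SIM1 lay close to the median ratio, although SIM1 was 3.06 times as high as GRHL1 in the SYNJ2BP IP, because it was also 3.59 times as high in IgG.

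**Figure D3:**
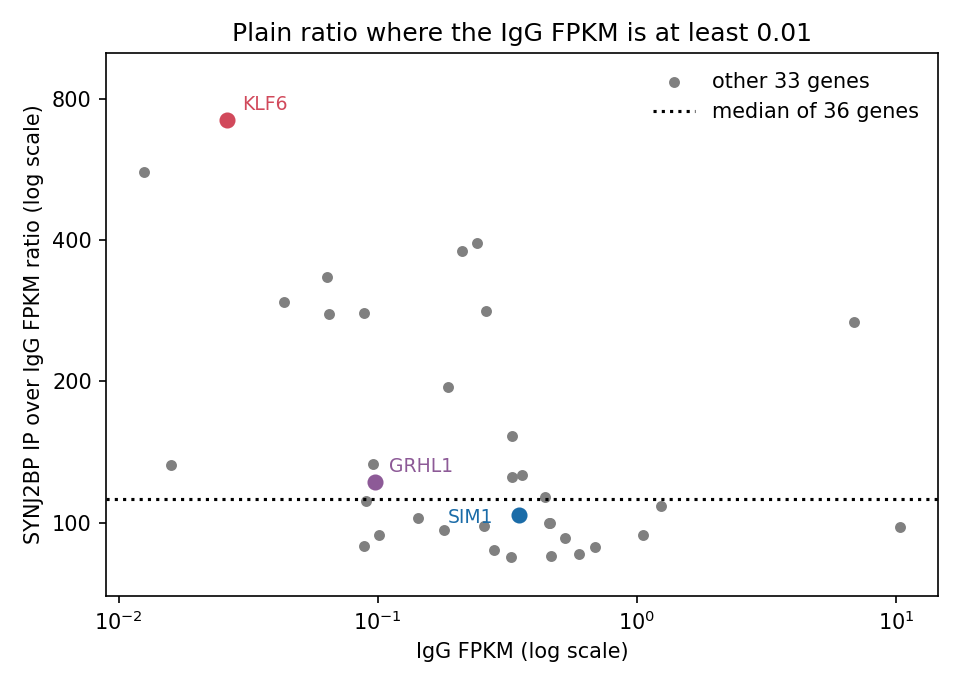
Plain SYNJ2BP IP over IgG FPKM ratio (log axis) against the IgG FPKM (log axis) for the 36 listed genes at or above an IgG FPKM of 0.01. KLF6 is the highest point at 720.3 under this limit, and GRHL1 (122.2) and SIM1 (104.1) lie on both sides of the dotted median of 112.5.

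The order of the 5 mRNAs by log2 difference depended on the amount added to both values. With 1 added, it was SIM1, KLF6, CREBL2, GRHL1 and HOXD11, which is also their order by SYNJ2BP IP FPKM. With 0.01 added, it was CREBL2 at a log2 difference of 10.51, HOXD11 at 9.94, KLF6 at 9.03, GRHL1 at 6.79 and SIM1 at 6.66. SIM1 moved furthest between these settings, to rank 83 of 104 with 0.01 added against rank 25 with 1 added, while HOXD11 moved to rank 29 against rank 61. KLF6 had rank 44 with 0.01 added, 21 with 0.1 and 37 with 1, and so did not move in a single direction. Of the 10 pairs among the 5 genes, 7 changed order at some amount between 0.01 and 1. The order of SIM1 and KLF6 turned at 0.329 and that of GRHL1 and HOXD11 at 0.49. KLF6 and CREBL2 stayed above GRHL1 at every amount tried from 0.0001 to 10.

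**Figure D4:**
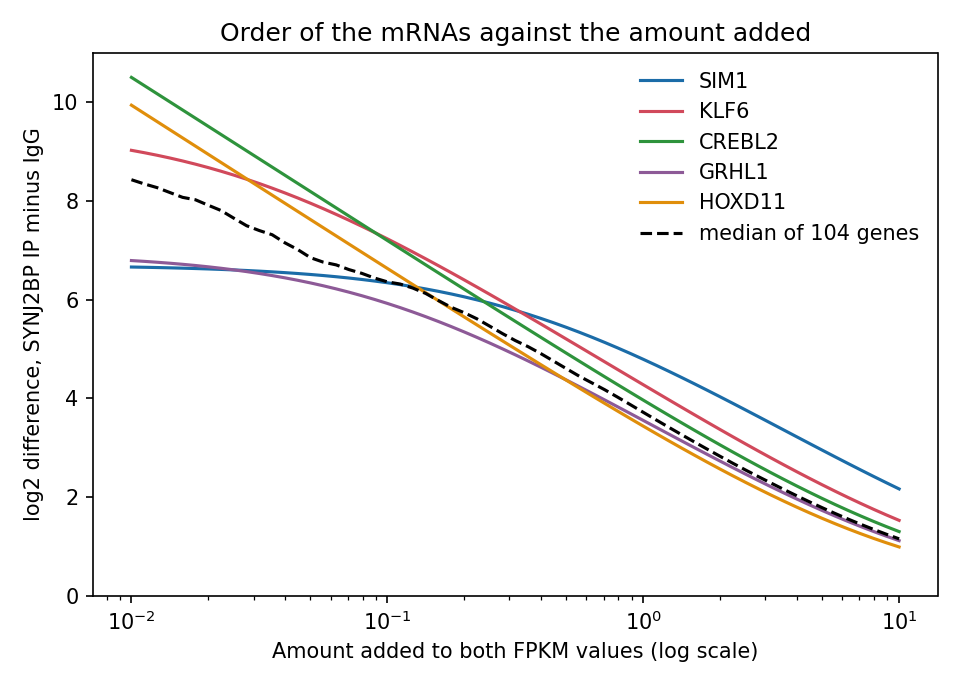
Log2 difference (SYNJ2BP IP minus IgG) for the 5 transcription factor mRNAs against the amount added to both FPKM values (log axis), with the median of all 104 genes as a dashed line. At 10 and 1 added SIM1 is the highest of the 5, and at 0.01 it is the lowest, at 6.66 against 10.51 for CREBL2.

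For each mRNA, the listed genes with the most similar pair of values were found by straight-line distance on log2(FPKM + 0.01) over both libraries. SIM1 was nearest to ZWILCH, a kinetochore protein (SYNJ2BP IP 41.2, IgG 0.328, distance 0.20), and to EXTL3, a glycosyltransferase of heparan sulfate synthesis (distance 0.33). KLF6 had no close neighbour, since the nearest genes, the sedoheptulose kinase gene SHPK and the calmodulin-dependent kinase gene CAMK1D, lay at distances of 0.79 and 1.04. GRHL1 was nearest to LDOC1L (SYNJ2BP IP 12.7, IgG 0.0955, distance 0.10) and CRAMP1L (distance 0.26). The nearest genes to CREBL2 were RP11-343C2.12 at 0.042 and PDPR, the pyruvate dehydrogenase phosphatase regulatory subunit, at 0.11. For HOXD11 they were the phosphatase gene PHLPP2 at 0.0037 and RP11-77K12.1 at 0.011. All of these neighbours of CREBL2 and HOXD11 were listed near 0 in IgG, so that on this side a short distance says only that both values were far under the amount added. No transcription factor of the 5 was among the nearest genes of another. With only 2 nearest genes taken per mRNA from a list of 104, this does not show that the 5 were unlike each other.

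The families of these factors were otherwise not represented in the list. None of 26 KLF and SP genes other than KLF6 was listed, and none of 16 bHLH-PAS symbols, among them ARNT, the dimer partner of SIM1. None of 18 other bZIP genes was listed, among them the CREB and ATF families and the stress factor DDIT3. The same held for 5 grainyhead and CP2 genes and for the other 38 HOX genes. Genes outside the list were not analysed here, so these counts say nothing of their levels in either library. SYNJ2BP itself was not listed. The antibody is directed at the protein, so the SYNJ2BP mRNA would in any case be no check of its target.

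Listed genes of development and stress that are no transcription factors gave values on both sides of the 5. These 6 genes were picked from the list as examples and do not stand for all such genes in it. FGF11, of the fibroblast growth factor family, had 12.1 FPKM in the SYNJ2BP IP and GDF1, a ligand of left-right patterning, had 3.29, and both were listed near 0 in IgG. The axon guidance cue NTN1 had 7.87 FPKM in the SYNJ2BP IP, against 0.0881 FPKM in IgG. EGLN1, the oxygen-sensing prolyl hydroxylase, had 50.1 FPKM in the SYNJ2BP IP, against 0.441 FPKM in IgG. The DNA repair nuclease ERCC5 had 35.9 and the stress kinase MAPK11 had 3.005 in the SYNJ2BP IP, both listed near 0 in IgG. Only EGLN1 among these was above SIM1 in the SYNJ2BP IP, and 3 of the 6 (GDF1, NTN1 and MAPK11) were below HOXD11.

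The 5 genes lie on 4 chromosomes and none of their listed loci overlaps that of another listed gene. Such overlaps were rare in the list, at 6 of 104 genes. On hg19, as the deposited table gives them, SIM1 (ENSG00000112246) is on chromosome 6 from 100832890 to 100912805, KLF6 (ENSG00000067082) on chromosome 10 from 3818187 to 3827473 and CREBL2 (ENSG00000111269) on chromosome 12 from 12764760 to 12798042. Chromosome 2 holds both GRHL1 (ENSG00000134317), from 10085340 to 10142411, and HOXD11 (ENSG00000128713), from 176968943 to 176984670. The loci span 9.29 kb for KLF6 to 79.9 kb for SIM1, with a median of 33.3 kb, beside 65.5 kb over all listed genes. RefSeq (GRCh38.p14) annotates each of them as a protein-coding gene.

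For SIM1, KLF6 and CREBL2 the listed locus is as long as the RefSeq gene to within 1% (1.00, 1.01 and 1.00 times its length), and for GRHL1 it is 1.13 times as long. For HOXD11 it is 15.7 kb against 8.40 kb for the gene, or 1.87 times as long. Such an excess was common in the list, since the locus was at least 1.5 times the RefSeq length for 35 of the 81 genes with a current symbol, with a median of 1.24 times over the 81. The HOXD genes lie close together, with HOXD12 and HOXD10 as the nearest protein-coding genes, and the RefSeq span from the start of HOXD11 to the end of HOXD10 is 12.7 kb. Whether the HOXD11 value includes fragments of a neighbouring HOXD transcript was not tested. In RefSeq SIM1 overlaps the antisense gene SIM1-AS1, and CREBL2 overlaps the pseudogene RPL21P136 and the lncRNA gene LOC124902880. GRHL1 overlaps the lncRNA gene LOC124905970, while the RefSeq genes of KLF6 and HOXD11 overlap no gene. How strand was treated in the counting is not given in the sources used, so reads of these overlapping genes cannot be told apart. For the longer listed locus of HOXD11, overlap with RefSeq genes was not checked. GRHL1 has KLF11 as a neighbour, a relative of KLF6 that is not listed.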

How the data were processed

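SYNJ2BP IP and IgG RIP-seq libraries of HEK293T cells, 1 each, were grouped by the antibody label. Sequencing used 150 bp paired-end reads of a stranded library. The authors deposited gene-level FPKM values of 104 chosen genes, a fold change (the ratio of both values, not used here) and a mark of CLIP-tested genes (other). The rule for choosing the genes is not stated. Per the submitters' processing notes, the build was hg19 and the tools included HISAT2 (version 2.0.4), Cuffdiff (version 2.2.1), Cufflinks and cutadapt (version 1.9.3), with no roles given. The total depth is unknown, so no counting interval was formed.

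Log2 differences were calculated with 1 added to both FPKM values (pandas 2.3.3 and numpy 2.4.6 under Python 3.11.15; plots by matplotlib 3.10.9). The formula was checked on values of known difference. Alternatives were 0.1, 0.01 or 10 added, fold limits of 2 and 8, a SYNJ2BP IP FPKM of at least 5, IgG limits of 0.001 and 0.1, and a background without clone-based, readthrough or overlapping genes. The scan of amounts at which pairs change order was added after the data had been seen. The text names the 5 genes, the 2 nearest genes to each, the ZNF, ZBTB and ZSCAN genes, and the family, development and stress lists. SCRIB and MPDZ were named after their values were seen. Members and lists were chosen with earlier results of these data known. Symbols of the 5 genes were matched to RefSeq (GRCh38.p14) for names, neighbours and lengths.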

Additional observations from a re-analysis of the deposited data

How the results depend on the processing

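No paired analysis was possible because 1 SYNJ2BP IP and 1 IgG library were deposited, and leaving either out would end the comparison. The count of the 5 transcription factors past 4-fold was 5 with 0.1 or 0.01 added, at limits of 2-fold and 8-fold, and under both filters, but 1 with 10 added. Since no plain ratio in the list was under 84.8, these counts mostly restate the SYNJ2BP IP FPKM. Their agreement across settings is therefore no support for a trait of the 5. Without clone-based and readthrough symbols and overlapping loci the background was 74 of 85 genes, and with a minimum of 5 FPKM in the SYNJ2BP IP it was 81 of 81. The median log2 difference of the 5, 3.96, was 6.63 with 0.1 added, 9.03 with 0.01 and 1.30 with 10, since any log2 difference shrinks as more is added. The median plain ratio of KLF6, GRHL1 and SIM1, 122.2, became 19.4, 81.2 and 110.9 after 1, 0.1 and 0.01 were added. At an IgG limit of 0.1 it was 104.1, the value of SIM1 alone, since KLF6 and GRHL1 then drop out. No log2 difference changed sign. The depth is unknown, so its limits were not assessed beyond the IgG values near 0.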
